A study of Caenorhabditis elegans with 4 samples.

Results

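The peaks described here are the autosomal sites of SEA-2::GFP that lay between genes and away from annotated transcript starts. The deposited list of peaks called on all replicates together, on the genome build ce11, held 3912 peaks, of which 2980 lay on the 5 autosomes. A peak was a member when its summit fell in no gene body and in no window from 1000 bp upstream to 200 bp downstream of a transcript start. Gene models were those of Ensembl release 115 on WBcel235, the same assembly, and pseudogenes and piRNA genes were not counted as genes. The rule left 523 peaks, which were 13.4% of all pooled peaks and 17.6% of the autosomal ones. Of the other autosomal peaks, 1578 had their summit in a promoter window and 879 in a gene body outside all promoter windows. Both classes served for comparison.

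The study used ChIP-seq, in which DNA bound to a protein is recovered with an antibody and sequenced, on whole L3 larvae of Caenorhabditis elegans in 4 biological replicates of 1 group. The worms were of strain OP193, mutant for unc-119(ed3) and carrying the integrated transgene wgIs193, which expresses SEA-2 with a C-terminal TY1, EGFP and FLAG tag beside a rescuing unc-119 copy. The larvae were of mixed sex and were used whole, so the tissues in which a site was bound cannot be told apart. No list from worms without the tag was used here. Replicates 1 and 2 are labelled with DNA sizes of 150 to 350 bp and the worm source CGC, and replicates 3 and 4 with sonication and the source Michael Snyder.

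SEA-2, which has zinc fingers, counts among the autosomal signal elements of worm sex determination. These act against the X signal elements at xol-1, the sex switch gene, and SEA-2 has also been tied to developmental timing. In the compact worm genome most regulatory DNA lies just upstream of genes, and stretches between genes that are far from a start are where distal enhancers, unannotated starts and 3' ends of genes are found. Annotated starts can be trans-splice sites, where a leader RNA is joined to the message, so a true start can lie further upstream.

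The DNA under the strongest of these peaks is shown first, because a GA repeat recurred in it. Each line gives the 101 bp centred on a pooled summit, read 5' to 3' from the RefSeq WBcel235 genome and named by the nearest genes on the left and right. Capitals mark the word GAGAGA or its reverse complement TCTCTC, and the word GACGCAG or its reverse complement CTGCGTC. The first 6 windows hold GAGAGA on either strand. The last 2, under the 4th and 5th strongest members, hold neither word in full. Their peaks are not without GAGAGA, since its nearest base on either strand lies 50 and 61 bp from their summits. The window reaches only 50 bp to each side and so leaves the word out. Shown are members 1 to 6, 9 and 10 by signal value, those with GAGAGA in the window first. Members 7 and 8, not shown, also hold it in the window. Members 11, 12 and 13, not shown, do not.
imph-1/pan-1, III:4560620-4560720, plus strand: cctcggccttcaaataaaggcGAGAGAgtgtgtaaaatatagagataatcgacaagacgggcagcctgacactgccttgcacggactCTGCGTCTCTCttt
atfs-1/T16A9.3, V:14200171-14200271, plus strand: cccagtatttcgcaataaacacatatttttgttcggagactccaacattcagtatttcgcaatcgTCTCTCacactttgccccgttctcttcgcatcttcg
Y17G7B.17/Y17G7B.18, II:12102531-12102631, plus strand: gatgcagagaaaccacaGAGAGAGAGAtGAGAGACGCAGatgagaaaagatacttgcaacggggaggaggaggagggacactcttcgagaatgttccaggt
F54F12.6/Y39E4B.6, III:13061255-13061355, plus strand: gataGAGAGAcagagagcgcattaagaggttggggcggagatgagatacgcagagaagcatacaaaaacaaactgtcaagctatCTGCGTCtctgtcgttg
nhr-20/F43C1.7, III:4237878-4237978, plus strand: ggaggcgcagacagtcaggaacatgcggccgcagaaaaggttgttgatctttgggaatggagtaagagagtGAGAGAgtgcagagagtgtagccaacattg
T04C4.3/fnip-2, IV:2219587-2219687, plus strand: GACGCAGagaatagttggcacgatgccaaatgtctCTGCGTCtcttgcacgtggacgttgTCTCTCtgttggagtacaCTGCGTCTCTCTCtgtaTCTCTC
zer-1/T24C4.10, III:888032-888132, plus strand: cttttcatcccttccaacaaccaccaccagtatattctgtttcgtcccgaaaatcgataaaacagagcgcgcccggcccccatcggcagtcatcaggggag
sup-26/R10E4.3, III:4282094-4282194, plus strand: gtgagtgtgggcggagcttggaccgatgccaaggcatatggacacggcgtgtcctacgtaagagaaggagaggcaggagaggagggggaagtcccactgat
GACGCAG was noticed in these windows and was therefore chosen after its values were seen. It runs directly into or overlaps a GAGAGA stretch in the windows of Y17G7B.17/Y17G7B.18, imph-1/pan-1 and T04C4.3/fnip-2.

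GAGAGA lay in the summit window of 134 of the 523 members, or 25.6%. It lay in 8.03% of the flanking windows of the same length centred 250 bp to each side, and in 5.25% of the 166485 windows that tile all eligible autosomal sequence. Eligible sequence is what the rule allows, meaning bases between genes and far from starts. In the other classes the word also exceeded the flanks. It lay at 19.4% of the 1578 promoter window peaks, against 8.78% of their flanks. At the 879 gene body peaks the share was 13.8%, against 6.14% of their flanks. The word became more frequent with peak strength. In 4 equal bins of members by signal value, from strongest to weakest, the share with GAGAGA was 43.5%, 23.7%, 19.1% and 16.2%, while the flanks stayed between 6.49% and 10.3%. The signal value is the authors' own score of a peak, on a scale that is not stated, and was used only to rank and describe peaks within a list.

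The final list is what the authors kept of the pooled peaks by thresholding on the irreproducible discovery rate, and it consisted of the 312 strongest pooled peaks by signal value. Among these, 39 were members, which was 7.46% of the 523 (exact 95% binomial interval 5.36 to 10.1%). The background was 7.98% of all pooled peaks, so the members' share lay near it and is not a result about them. GAGAGA lay at 24 of these 39 summits, or 61.5% (exact interval 44.6 to 76.6%). It lay at 37.8% of the 164 promoter window peaks of the final list (30.4 to 45.7%) and at 57.7% of the 26 gene body peaks of that list (36.9 to 76.6%). The intervals of the intergenic and promoter shares overlap narrowly. Those of the intergenic and gene body shares overlap almost wholly. These intervals cover counting error only, since neighbouring peaks are not independent.

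**Figure D1:**
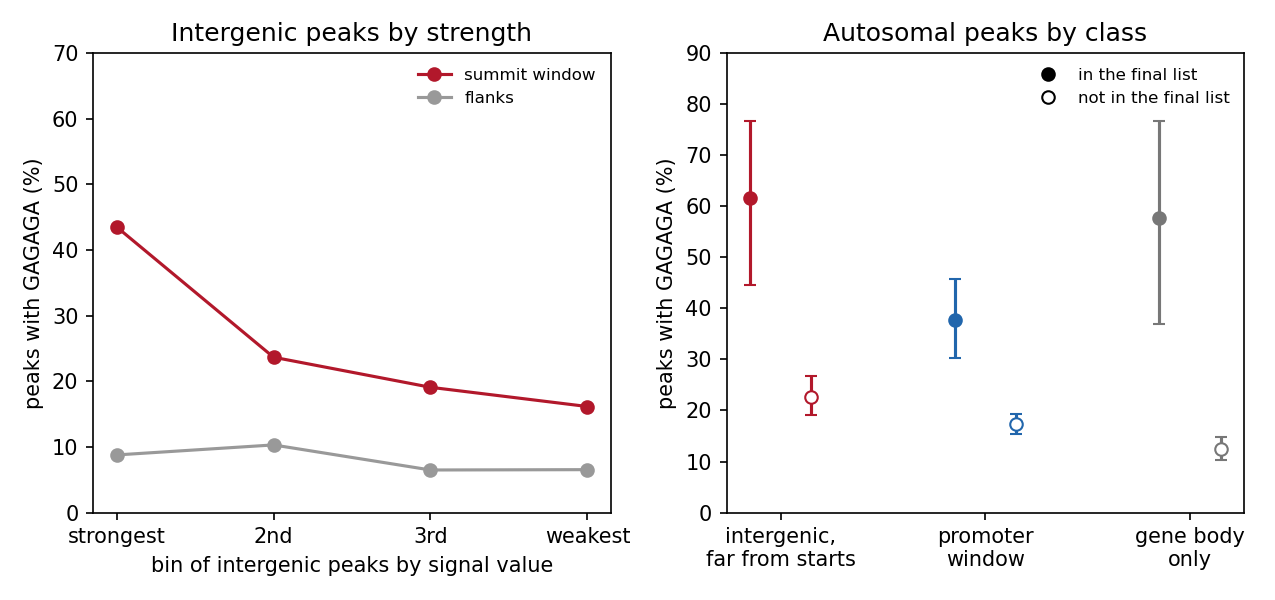
Share of peaks (%) with GAGAGA or TCTCTC in the 101 bp around the summit. Left, members in 4 bins from the strongest to the weakest by signal value, with their flanks in grey; the share is 43.5% in the strongest bin and 16.2% in the weakest. Right, autosomal peaks by class, filled when in the final list and open when not, with exact 95% binomial intervals; filled points lie above open ones in every class.

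In the 24 final members with the word in the window, which reaches 50 bp from the summit and so limits the distance, the nearest GAGAGA was a median of 19 bp away. The GA repeat was 10 bp or longer in 6 of them, with 18 bp as the longest. It lay on the plus strand alone in 12, on the minus strand alone in 7 and on both in 5. Of the 15 final members without it in the window, 13 had it within 300 bp of the summit and 2 did not. A wider window meets a short word more often by its length alone. The share within 300 bp was not taken for other classes or eligible sequence, so these counts have no background. In bins of 25 bp, the share of final members with the word was 38.5% from 50 to 26 bp left of the summit and 33.3% from 50 to 74 bp right of it. It was 30.8% in each of the 3 bins between. Members outside the final list showed a lower and broader rise, with 9.50% in each of the bins from 0 to 24 bp and from 25 to 49 bp.

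**Figure D2:**
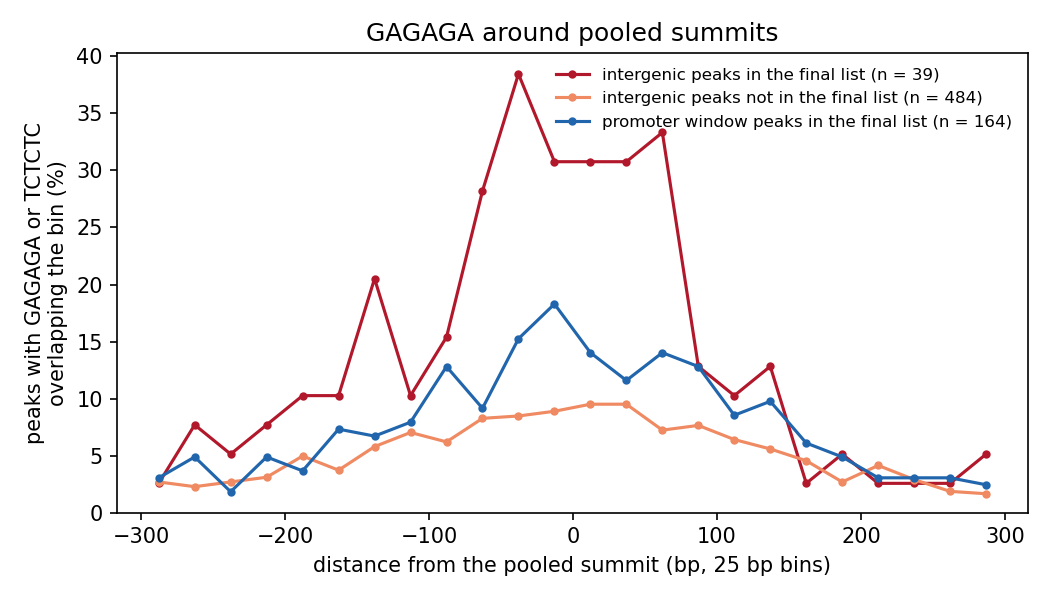
Share of peaks (%) in which GAGAGA or TCTCTC overlaps a 25 bp bin, by distance from the pooled summit, for final members (n = 39), other members (n = 484) and promoter window peaks of the final list (n = 164). The final members reach 38.5% near the summit, against at most 18.3% for the promoter window peaks.

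The replicates' own lists, which name their own summits, showed the same word. They are not independent support, since the pooled list was called from these 4 replicates. The word was also chosen with earlier results of these data known. Among the 312 strongest peaks of each replicate, 28, 33, 41 and 50 peaks in replicates 1 to 4 met the member rule. GAGAGA lay in 53.6%, 42.4%, 41.5% and 40.0% of these, a mean of 44.4% ± 6.22 (SD, n = 4), against 7.27% ± 1.43 in their flanks. Among the strongest 3912 peaks of each replicate, the share was 20.7%, 20.3%, 14.3% and 14.7% in replicates 1 to 4. The flanks averaged 8.73% ± 0.813 (SD, n = 4). The summit share exceeded the flank share in 4 of 4 replicates, by 8.77 percentage points ± 3.48 (exact two-sided sign-flip permutation p = 0.13, adjusted p = 0.170). That p of 0.13 is the smallest that 4 replicates allow, so none of the 15 tests in this family of replicate comparisons could pass 0.05. Within sources, the share was 20.3 to 20.7% in replicates 1 and 2, from CGC, and 14.3 to 14.7% in replicates 3 and 4.

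Members with GAGAGA were also found more often in single replicates. A pooled peak was counted as recovered when it overlapped one of a replicate's 3912 strongest peaks by at least 1 bp. Recovery of the 134 members with the word was 64.9%, 40.3%, 46.3% and 36.6% in replicates 1 to 4. Recovery of the 389 without it was 42.9%, 21.9%, 33.9% and 22.1%. The word's carriers were ahead in every replicate, by 16.8 percentage points ± 4.29 (SD, n = 4, unadjusted exact permutation p = 0.13, the smallest possible). The median signal value was 38.3 with the word and 34.0 without, and 24 carriers (17.9%) against 15 others (3.86%) were in the final list. The pooled list was called from the same 4 replicates, so recovery is not independent of membership.

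GACGCAG was rarer. It lay at 12 of the 39 final members (30.8%) and at 36 of all 523 members (6.88%), against 1.34% of the members' flanks and 0.820% of the eligible windows. Over the whole classes it lay at 6.53% of promoter window peaks and 3.41% of gene body peaks. The members' share thus lay near that of promoter window peaks and is not particular to them. It lay at 12.8% of the promoter window peaks of the final list and at 23.1% of the gene body peaks of that list. In the members' counterparts among each replicate's 312 strongest peaks it lay in 28.6%, 21.2%, 17.1% and 16.0% for replicates 1 to 4. The word was picked from windows of final members, so its share among them was partly set by that choice. The pooled list was called from these replicates, so their shares are not independent of the choice either. Of the 39 final members 8 held both words, 28 held at least 1 and 11 held neither.

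Base composition changed over the same windows. GC content averaged 40.5% at the 523 summits and 35.4% in their flanks, a difference of 5.14 percentage points ± 0.444 (SE over members), against 34.3% over all eligible windows. The difference from the flanks was 5.51 percentage points at promoter window peaks, 2.13 at gene body peaks and 4.44 over all autosomal pooled peaks. GC content was higher than in the flanks at 353 members (67.5%). At the 39 final members it averaged 49.4% against 36.4% in the flanks, and was higher at 36 of them. Promoter window peaks of the final list had a like value of 49.98%. GAGAGA itself has equal numbers of G and A, so the word and the GC content are not separate measures.

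In the replicates' own class peaks among the 3912 strongest, GC exceeded the flanks by 2.71, 6.54, 2.10 and 2.41 percentage points in replicates 1 to 4 (mean 3.44 ± 2.08 SD, higher in 4 of 4, exact permutation p = 0.13). Replicate 2 lay above the other three. Bases that RefSeq marks as repeats made up 21.3% of the members' summit windows and 13.8% of the final members', against 42.1% of all eligible windows. The share was 22.0% over all autosomal pooled peaks. A second genomic copy of the window, of at least 50 bp at 90% identity, was found for 21 members (4.02%), against 2.45% of all autosomal pooled peaks. None was found for the 39 final members, nor for the 164 promoter window peaks of the final list.

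The other words searched on both strands were rarer at members than in eligible windows or within 1 percentage point of them. TGATAA, the core of GATA factor sites, lay at 6.31% of members and at none of the 39 final members, against 8.99% of eligible windows. A run of A or T, AAAAAAAA, lay at 7.27% of members, against 13.7% of eligible windows. GAANNTTC, an inverted pair within heat shock elements, lay at 3.82%, against 7.82% of eligible windows, but at 4 of the 39 final members (10.3%). These 3 words were also rarer than in eligible windows at the other classes. Promoter window peaks held TGATAA, AAAAAAAA and GAANNTTC at 6.72%, 5.70% and 5.26%, and gene body peaks at 7.96%, 7.28% and 6.03%. CTGTTTCA lay at 0.765%, against 1.71%, and GGTTCGA, found in the inner promoter of tRNA genes, at 0.382%, against 0.811%. CACGTG, the E-box, lay at 1.53% of members and 1.45% of windows, and CCGCCG at 2.29% and 1.43%. A match is a run of letters and no evidence of a bound factor.

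The strongest member lay at III:4560500-4560839, 232 bp past the end of imph-1, a homologue of IGF2 mRNA-binding proteins, and 2068 bp before pan-1, a transmembrane leucine-rich repeat protein. Its signal value was 105.4, and it ranked 35th of the pooled peaks. The overlapping peaks ranked 17, 488, 166 and 56 in the lists of replicates 1 to 4, where rank 1 is the strongest. It was thus within the 312 strongest in 3 of 4 replicates. A second member had its summit 212 bp away, and their peaks overlapped.

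The second member, at V:14200051-14200390, lay 2521 bp past the end of atfs-1, the transcription factor of the mitochondrial unfolded protein response. With 99.4 by signal, its ranks in replicates 1 to 4 were 27, 585, 52 and 141. Like the imph-1 peak it ranked lower in replicate 2 than in the other replicates. The third, at II:12102411-12102750 between Y17G7B.17 and Y17G7B.18, had a signal value of 94.5 and ranks of 101, 222, 484 and 35.

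The fourth member lay 1289 bp upstream of zer-1, whose product is a substrate receptor of a cullin ubiquitin ligase, and lacked GAGAGA in its summit window. Its signal value was 93.8. It ranked 99, 41 and 57 in replicates 1 to 3 but 3861 in replicate 4. The fifth lay 1920 bp upstream of sup-26, an RNA-binding regulator of sex determination, with a signal value of 92.7. Its ranks were 57, 212, 431 and 9, and 9 was the best rank of any member in replicate 4. GC content at this summit was 59.4%, with 53.5% in the flanks.

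Some of the final members lay in gaps bordered by a non-coding RNA (ncRNA) gene. An ncRNA gene was nearest to 6 of the 39 final members, and a protein-coding gene to 31. The ncRNA share was 20.7% over all members and 14.1% over eligible bases, so such genes did not set the final members apart. On chromosome III, 3 final members lay in the gap between the ncRNA gene F54F12.6 and Y39E4B.6. Their signal values were 83.9, 67.6 and 59.0, and their pooled summits lay 2819, 10074 and 4127 bp past the end of F54F12.6. The one with 67.6 had the protein-coding gene Y39E4B.6 as its nearest gene and lay 2196 bp upstream of it. The first ranked 156, 774, 112 and 129 in replicates 1 to 4. The member with the value 67.6 ranked 115, 3269, 240 and 1622, and the one with 59.0 ranked 2056, 109, 167 and 2011. Single replicates placed these neighbours in different orders.

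A member at II:11751647-11751986 lay among ncRNA genes between gpb-1, a G protein beta subunit, and F44E5.4, with a signal value of 76.6 and ranks of 576, 125, 124 and 86. A member at IV:7391546-7391885, between mob-3 and pitr-1, ranked 581, 137, 211 and 316 with a signal value of 78.2. Neither window held GAGAGA. One member of the final list had a microRNA gene as its nearest gene. It lay 1493 bp upstream of mir-2215, with a signal value of 74.9, ranks of 401, 725, 685 and 71, and both words in its window.

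Other members of the 20 strongest had a peak in all 4 replicates but at widely different ranks. The member 3632 bp upstream of ric-4, which encodes the worm SNAP-25 of synaptic vesicle release, had a signal value of 79.9. This member lay nearer to Y22F5A.11, 1456 bp past the end of that gene. It ranked 105, 371 and 972 in replicates 1 to 3, but 15054 in replicate 4. The member between rps-25, a small ribosomal subunit protein, and K02B2.35 stood at 75.4 by signal and ranked 17 in replicate 2, but 2905, 1971 and 666 in replicates 1, 3 and 4. The member beside linc-93 stood at 69.9 by signal and ranked 152, 59 and 813 in replicates 1 to 3, but 18672 in replicate 4. In each of these cases 1 replicate stood apart from the other three.

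The member between the nuclear hormone receptor gene nhr-20 and F43C1.7 was steadier, with a signal value of 79.8 and ranks of 137, 166, 318 and 469. So was the one 1162 bp past the end of Y48G9A.9 and 1252 bp before ppk-2, a phosphoinositide kinase. Its signal value was 70.8, with ranks of 432, 263, 269 and 166. The member between T04C4.3 and fnip-2 had 78.6 and ranked 254, 138 and 424 in replicates 1, 2 and 4, but 4510 in replicate 3. Its window held more bases in capitals than any other shown. The member between ssu-2 and Y67A10A.7 had 74.4 and ranked 223, 227, 91 and 1691. The one between T12A7.2 and lips-5 had 73.6 and ranked 218, 361, 176 and 728. The one between mtm-3, a myotubularin phosphatase, and xbx-5 had 71.2 and ranked 48 and 89 in replicates 2 and 4 but 2957 and 982 in replicates 1 and 3.

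The 2 members of the 20 strongest that lay on chromosome I also differed between replicates. The one 1106 bp upstream of F58D5.5 stood at 82.3 by signal and ranked 280, 10, 566 and 675. The one between Y48G10A.3 and Y48G10A.2 had 71.3 and ranked 205 and 65 in replicates 1 and 4. Replicate 2 had no overlapping peak there and replicate 3 placed it at rank 26666.

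The remaining 19 final members had signal values between 58.0 and 67.6, and the strongest member left out of the final list had 57.2. After the member with 67.6 in the F54F12.6 gap came one 1462 bp upstream of unc-51, the worm ULK1 kinase that starts autophagy. It had 66.5 and ranked 479, 178, 280 and 143. Another lay 1361 bp upstream of epg-9, also an autophagy gene, with 62.3 and ranks of 128, 2207, 2335 and 17079. One lay 95 bp past the end of nuo-4, a subunit of mitochondrial complex I, in the gap toward ogt-1, the O-GlcNAc transferase. It had 60.1 and ranked 3614, 4752, 744 and 9009, so it stood in the 312 strongest of no replicate. One lay 2479 bp upstream of nduf-7, another complex I gene, with 59.3, and had no overlapping peak in replicate 2.

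More of the 19 lay upstream of genes or past their ends. The member 1613 bp upstream of cam-1, a ROR receptor tyrosine kinase of Wnt signalling, had 58.2 and ranked 2608, 668, 2196 and 646. The one 3231 bp upstream of clip-1 had 59.7 and ranked 1864, 252, 3458 and 8522. The one 2030 bp past F59A6.2, toward the MAP kinase kinase kinase gene nsy-1, had 63.7 and ranked 72, 800 and 2486 in replicates 1 to 3, with no peak in replicate 4. The member 2581 bp upstream of the nuclear hormone receptor gene nhr-88 had 59.2 and ranked 56, 22907, 1651 and 6577. The one past glp-4, a valyl-tRNA synthetase, had 63.8 and ranked 173, 29134, 136 and 10493.

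Ranks of 5 more of the 19 also spread widely between replicates. The member between nep-11 and C16C8.18 had 62.7 and ranked 56 and 125 in replicates 2 and 3, but 9354 and 5049 in replicates 1 and 4. The member between jmjd-2, a histone demethylase, and Y48B6A.23 had 59.4 and ranked 10394, 207, 97 and 3529. The one between pad-2, a protein O-fucosyltransferase, and K10G9.2 had 59.3 and ranked 1952, 141 and 189 in replicates 1 to 3, with no peak in replicate 4. The member upstream of mfb-1 had 63.0 and ranked 322, 24151, 496 and 54. The one before R05C11.4 had 60.7 and ranked 215, 543, 2193 and 4670. Besides the pair in the F54F12.6 gap, 3 members remain. The one past gfl-1 had 64.7 and ranked 2901, 282, 3160 and 291, so replicates 2 and 4 placed it far higher than replicates 1 and 3. The one past C33D9.13 had 61.0 and ranked 572, 14083, 120 and 1694. The one upstream of aat-5, an amino acid transporter gene, had 58.0 and ranked 312, 11092, 1045 and 1095.

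**Figure D3:**
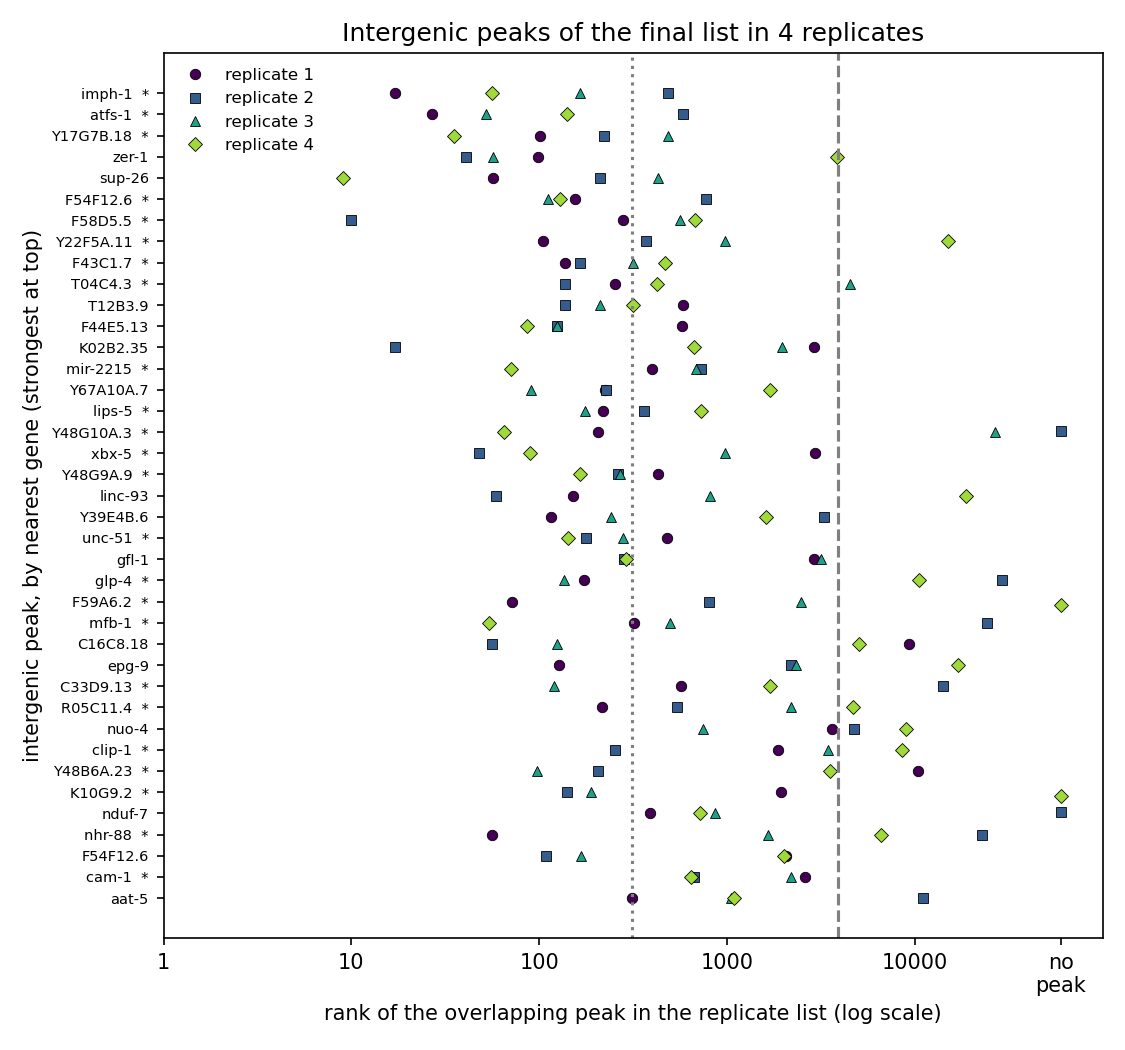
Rank of the overlapping peak in each replicate's list (log scale, 1 is strongest) for the 39 members of the final list, labelled by nearest gene from the highest to the lowest signal value; a star marks GAGAGA in the summit window. The dotted line is rank 312 and the dashed line rank 3912; the zer-1 peak lies at 3861 in replicate 4 and under 100 in the others.

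Of the 39 final members 35 had an overlapping peak in all 4 replicate lists, which held 23684 peaks for replicate 1 and 30000 for each of the others. Within the 3912 strongest, 21 were found in all 4 replicates, 13 in 3 and 5 in 2. Within the 312 strongest, none was found in all 4, 10 were in 3, 15 in 2, 11 in 1 and 3 in none.

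Over all 523 members, 27 (5.16%) lay among the 3912 strongest peaks of all 4 replicates, where 5.81% of all autosomal pooled peaks did. This too is near the background. Members in 3, 2, 1 and 0 replicates numbered 54, 123, 206 and 113. Recovery by replicate was 48.6%, 26.6%, 37.1% and 25.8%, which averages 34.5% ± 10.7 (SD, n = 4). Promoter window peaks averaged 39.3% ± 10.8 and gene body peaks 27.7% ± 10.6.

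At this depth of the lists the members stood between the other classes in every replicate. They lay below promoter window peaks in 4 of 4 replicates, with a mean difference of −4.76 percentage points ± 1.15, and above gene body peaks in 4 of 4, with 6.78 ± 4.26 (SD, n = 4, exact permutation p = 0.13 for each, adjusted p = 0.170). Over the replicates' whole lists the difference from promoter window peaks was −1.51 ± 2.61, with members ahead in 1 of 4 replicates, and that from gene body peaks was 4.79, with members ahead in 4 of 4. The spread between replicates within a class was larger than either difference between classes. The median rank of the members was 4323, 14224, 6943 and 12729 in replicates 1 to 4. In each replicate it was worse than that of promoter window peaks, by 1397 ± 902 ranks, and better than that of gene body peaks, with a difference of −3548 ± 2241 ranks. Both ranked differences had the same p of 0.13. Within the 312 strongest, recovery of members was 5.93%, 6.31%, 7.27% and 7.84%, below the promoter window class and above the gene body class in each replicate. None of the 523 members was among the 312 strongest of all 4 replicates. There were 22 of the 1578 promoter window peaks and 5 of the 879 gene body peaks. The background was 27 of all 2980 autosomal pooled peaks, so such peaks were rare in every class.

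**Figure D4:**
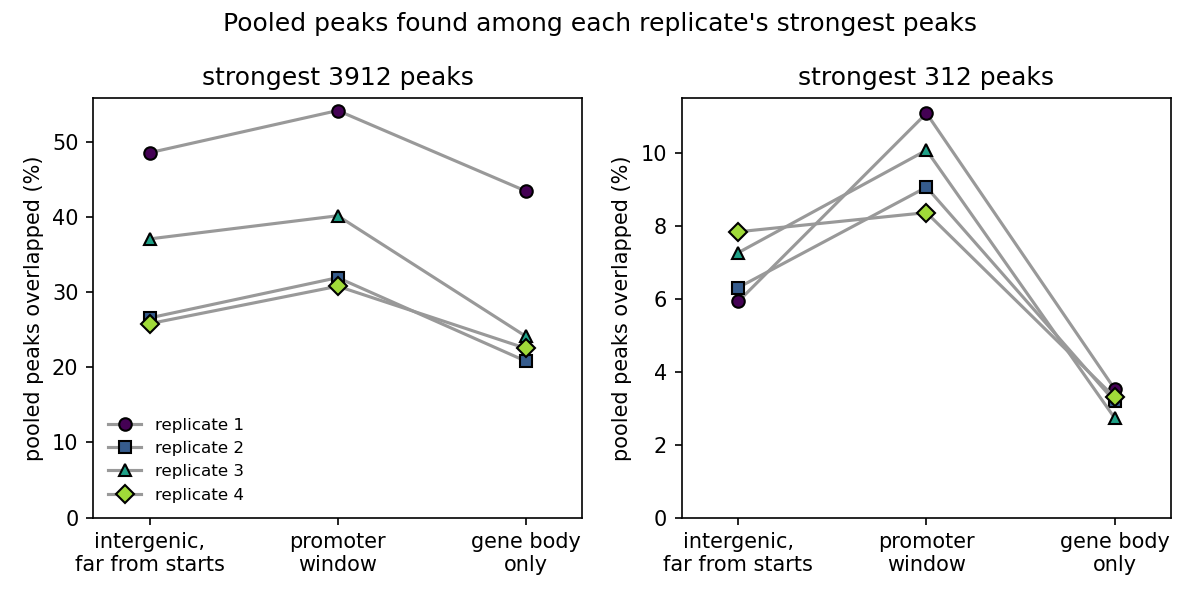
Pooled autosomal peaks (%) that overlap one of a replicate's strongest 3912 peaks (left) or strongest 312 peaks (right), by class, with a line for each replicate. The members lie between the promoter window and gene body classes in all 4 replicates on both panels, from 25.8% to 48.6% on the left.

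Signal values were close in the classes. The median was 34.5 for members, 36.1 for promoter window peaks and 33.5 for gene body peaks, within a pooled list whose lowest member had 30.2. The middle 50% of members ran from 31.6 to 40.8, so most were near the weak end of the list. By the authors' q-values, 52 members (9.94%) were under 0.05, where 10.2% of all autosomal pooled peaks were, so the share lay near the background. It was 13.9% for promoter window peaks and 3.75% for gene body peaks.

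Eligible sequence made up 17.2 Mb, or 20.8% of autosomal length. Members lay in it at 30.4 per Mb, against 58.2 per Mb in promoter windows and 23.0 per Mb in gene bodies outside them. Final members lay at 2.27 per Mb, against 6.05 and 0.680. By the same rule, the class took 16.8%, 12.8%, 20.4% and 18.6% of the autosomal peaks among the 3912 strongest of replicates 1 to 4 (mean 17.1% ± 3.28 SD). That was below its share of length in 4 of 4 replicates, with a mean difference of −3.69 percentage points ± 3.28 (exact permutation p = 0.13, adjusted p = 0.170). The share averaged 14.8% in replicates 1 and 2 and 19.5% in replicates 3 and 4, and 20.4% in replicate 3 came closest to the share of length. Worm source, fragmentation label and replicate pair cannot be told apart.

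Density differed between chromosomes. Chromosomes I to V held 115, 104, 103, 105 and 96 members. Per Mb of eligible sequence these were 45.8, 33.3, 41.4, 23.3 and 21.0. All pooled peaks followed the same order, with 49.2, 39.9, 44.9, 28.0 and 24.9 per Mb of chromosome. Final members numbered 6, 9, 12, 9 and 3 on chromosomes I to V, so the most were on III and the fewest on V.

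**Figure D5:**
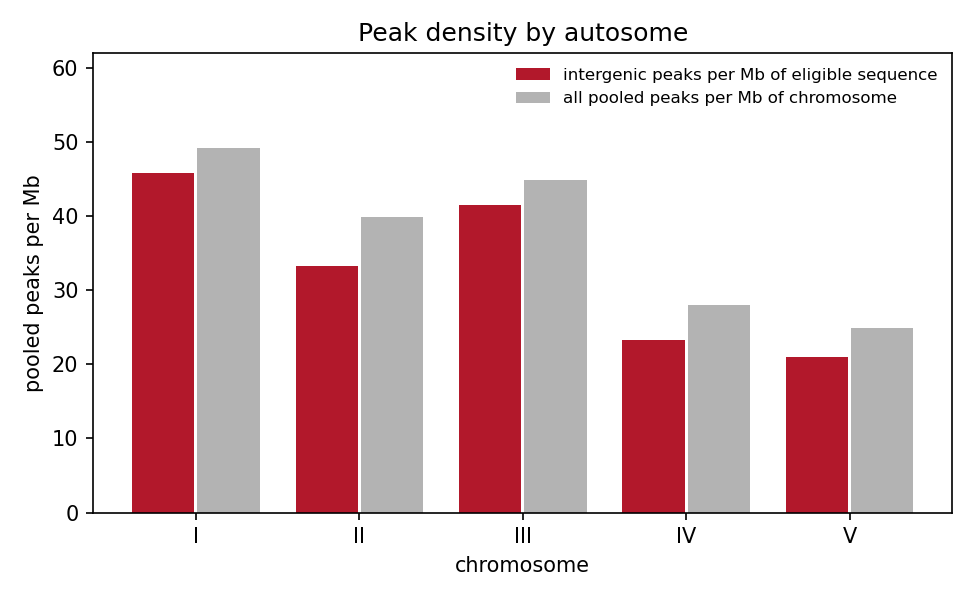
Members per Mb of eligible sequence (left bar of each pair) and all pooled peaks per Mb of chromosome (right bar), by autosome. Both are highest on chromosome I, at 45.8 and 49.2 per Mb, and lowest on chromosome V, at 21.0 and 24.9.

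Members lay toward chromosome centres, where 315 of 523 (60.2%) were in the middle 50% of the chromosome, against 44.2% of eligible bases. Peaks of the other classes did so too, with 68.3% of promoter window peaks and 67.2% of gene body peaks. Of the final members 19 of 39 (48.7%) lay there. The share was 54.5% for members with GAGAGA and 62.2% for those without.

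Members were sparser in gaps between convergent genes, in which both neighbours end. There lay 72 (13.8%), against 23.5% of eligible bases, and 1 of 39 final members did, the one beside linc-93. Gaps between tandem genes held 302 members (57.7%, against 52.6% of eligible bases) and 29 final members. Gaps between divergent genes held 149 (28.5%, against 23.9%) and 9 final members. Members were somewhat closer to genes than eligible bases were. The median distance to the nearest gene body was 1367 bp against 1547 bp, and to the nearest transcript start 1862 bp against 2218 bp. The nearest gene faced the member with its end in 272 cases (52.0%), against 57.8% of eligible bases, and in 20 of 39 final members. Within annotated pseudogenes lay 24 members (4.59%), against 13.2% of eligible bases, and none of the final members.

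Another pooled summit of any class lay within 2000 bp of 129 members (24.7%), near the 25.4% of all autosomal pooled peaks. Chains of members with steps of at most 5000 bp gave 50 groups with 117 members, of which 15 groups had 3 or more. The same count was not made for other classes. The 2 groups with 4 members were both on chromosome IV, between rps-25 and K02B2.6 and between him-8, a pairing-centre protein of X chromosome meiosis, and efn-2, an ephrin. A run of 3 members spanned 1117 bp beside sup-26. Peaks of 14 members overlapped those of another member, so these share reads.

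The nearest gene was protein-coding for 396 members (75.7%, against 82.3% of eligible bases) and an ncRNA gene for 108 (20.7%). ncRNA genes were nearest to 14.1% of eligible bases and to 9.85% of the other autosomal pooled peaks. A snoRNA gene was nearest to 9 members (1.72%), against 0.972% of eligible bases and 1.06% of the other autosomal peaks. A lincRNA gene was nearest to 6 (1.15%, against 1.26% of bases) and a microRNA gene to 2, mir-2215 and mir-228 (0.382%, against 0.710%). No member had a tRNA, snRNA or rRNA gene as its nearest gene, and these were nearest to 0.424%, 0.0735% and 0.0360% of eligible bases.

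Among protein-coding lists, counts were small. A chemoreceptor gene was nearest to 14 members (2.68%), against 1.42% of the other autosomal peaks, and none of these was in the final list. A nuclear hormone receptor gene was nearest to 7 (1.34%, against 0.692%), with nhr-88 in the final list. Other lists lay near their share among the other autosomal peaks. Ribosomal protein genes were nearest to 2 members, both at rpl-21 (0.382%, against 0.448%), and histone genes to 2, at his-7 and his-67 (0.382%, against 0.326%). Homeobox genes were nearest to 2, both at ceh-58 (0.382%, against 0.366%), and collagen genes to 1, col-3 (0.191%, against 0.285%). None of the 18 heterochronic genes matched was nearest to a member, and such genes were nearest to 12 of the 2457 other peaks (0.488%). Any gene of this list on the X chromosome could not be nearest to an autosomal peak. With so low a share elsewhere, the absence among members is not read as a result. No member lay within 5000 bp of sea-2 itself, of unc-119 or of lin-28. The gene xol-1 is on the X chromosome, which the rule leaves out.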

How the data were processed

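The authors deposited peak lists for each replicate, for the 4 replicates pooled, and a final list thresholded on the irreproducible discovery rate. Each deposited peak has a signal value and the −log10 of a q-value. Per the deposited file records, lists were called against a control. The sources used here do not name an aligner, caller, threshold or read number, and depth is unknown. Lists on ce10 were not used.

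Positions are 1-based on ce11, and the summit is the start plus the offset in the deposited lists. Peaks were ranked by signal value within a list. Gene models were Ensembl release 115 (29435 genes) and bases came from the RefSeq WBcel235 genome. GC content and words were taken in 101 bp around summits, and second copies were sought with blastn 2.17.0 (E-value limit 0.001). Replicate means were compared by exact two-sided sign-flip permutation with Benjamini-Hochberg adjustment over 15 tests (scipy 1.17.1, pandas 2.3.3). Peak classes, overlaps, the permutation test, its adjustment, and word and GC counts were tested on simulated or known cases. The other routines were not. Members described singly were the 20 strongest and those in the final list. The members, gene lists and words were chosen with earlier results of these data known.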

Additional observations from a re-analysis of the deposited data

Results flagged for a closer look

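Among 20 sets of replicate values screened for the class, 1 held a replicate far from the others: the GC difference between summit and flanks in the class peaks of replicate 2, at 6.54 percentage points, against 2.71, 2.10 and 2.41 in replicates 1, 3 and 4. Chance alone sets apart about 1 in 20 such sets. The deposited peaks of replicate 2 also had the smallest usual width, 296 bp against 364 to 376 bp in the others. Its class peaks had the lowest share with AAAAAAAA, 3.43%, against 7.99%, 13.0% and 10.4% in replicates 1, 3 and 4. The part of either in the GC value was not tested. Among the 312 strongest peaks the difference was 12.2 percentage points in replicate 2, against 11.6, 11.1 and 8.38 in replicates 1, 3 and 4.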

How the results depend on the processing

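No paired analysis was possible because the labels give 1 group of 4 replicates. Of the alternative values, 110 kept their direction or size, 3 moved and 6 turned in sign, and all 6 belonged to CCGCCG. A promoter window of 2000 bp upstream left 303 of the 523 members, of which 7.26% were in the final list and 22.1% held GAGAGA. The other gene and window rules gave 450 to 709 members, 7.05% to 8.72% in the final list. Second copies were found for 60 members at 30 bp and 90% identity and for 5 at 80 bp and 95% identity, against 21 as reported. The CCGCCG difference between summit and flanks in the replicates, −0.021 percentage points, became 1.12 with windows of 100 bp to each side, 0.533 with flanks at 500 bp, 0.137 in the stronger 50% of each replicate's class and 0.0211 without second copies. Leaving out each replicate gave −0.248 to 0.232, so no direction is given for this word. Leaving out each replicate gave 7.51 to 9.75 percentage points for GAGAGA and 2.41 (without replicate 2) to 3.89 for GC. It gave −5.32 to −4.48 for recovery against promoter window peaks and 4.72 to 7.95 against gene body peaks. The class share minus the share of length was −4.79 to −2.22, the last without replicate 2, and −3.69 with all 4 replicates. With 3 replicates the smallest possible exact permutation p is 0.25. Unknown read numbers limit any statement on missing peaks.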
